A study of Mus musculus with 6 samples.

Results

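The 7 mRNAs described here, mt-Nd1, mt-Nd2, mt-Nd3, mt-Nd4, mt-Nd4l, mt-Nd5, and mt-Nd6, are the complex I mRNAs encoded by the mitochondrial genome. They were found by symbol in the feature table, in which they are 7 of 32285 genes and 7 of the 13 mitochondrially encoded mRNAs (mt- mRNAs). The other 6 mt- mRNAs encode subunits of complexes III, IV, and V. For each mRNA the measure was its share of all unique molecular identifiers (UMIs) on the 13 mt- mRNAs, so that the shares of the 13 sum to 100% in each library and a rise of one has to be met by a fall of others.

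Complex I (NADH:ubiquinone oxidoreductase) takes electrons from NADH into the respiratory chain and pumps protons across the inner mitochondrial membrane. All 7 subunits encoded in the mitochondrion sit in its membrane arm, whereas the peripheral arm and the accessory subunits are encoded in the nucleus and imported. Mitochondrial genes are transcribed as long polycistronic precursors from both strands, are cut apart, and in most cases get a short poly(A) tail, and in β cells the NADH that complex I oxidizes links glucose metabolism to ATP and insulin release.

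Single-cell RNA-Seq libraries were made from islets of C57/BL6 mice at 12–14 weeks of age, with 3 WT and 3 KO libraries. The KO mice (β14-3-3ζ–KO) carried floxed alleles of exon 4 of Ywhaz, which encodes 14-3-3ζ, together with Ins1-CreThor, which drives recombination from the Ins1 locus in β cells. The labels give the controls as wild type, and by the study's methods they were littermates that carried Cre as well. Each genotype had 3 mice and has 3 libraries, read here as 1 mouse a library, so p-values measure the spread between mice. The sex of these mice is not given in the sources used here. Islets were cultured overnight, dispersed with trypsin, and depleted of dead cells before loading. In Ywhaz, the check of the label, the β cell–like cells of the WT libraries had 157, 173, and 171 CPM (UMIs scaled to a common library total), and those of the KO libraries had 19.2, 16.4, and 18.9 CPM, so the genotypes did not overlap. A Ywhaz UMI was still found in 31.3% to 43.3% of KO β cell–like cells in the 3 libraries, against 87.2% to 97.5% in WT. The counts do not separate exon 4 from the rest of the transcript, so this checks the level of the mRNA and not the deletion itself.

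The 6 libraries held 43445 barcodes and 514398069 UMIs, of which 74083947 to 98294915 were in a library. After barcodes with fewer than 500 genes and called doublets were left out, 25438 barcodes had at most 10% mt- UMIs and 11874 had more, which was 20.8% to 42.8% of the kept barcodes of a library. Together they held 16435394 and 24131385 mt- UMIs over all libraries and cell types. Single types held far fewer, such as 29644 to 42158 in a library of macrophage cell–like cells with at most 10% mt- UMIs. The rarer members, mt-Nd6 most of all, thus rested on few counts there. In all, 236 barcode sequences occurred in more than 1 library. Cells were named by fixed markers, and β (5431 cells at most 10% mt- UMIs), α (824), δ (796), endothelial (944), and macrophage cell–like cells (486) had at least 20 cells in every library. The β cell–like cells formed 2 clusters with 4 and 7 of their 8 markers enriched. The first, with Ins2 and Ins1 as its leading genes, gave 490 of the 964 β cell–like cells of KO library 2. It gave 218 of 1082 and 257 of 1054 in KO libraries 1 and 3. In WT libraries 1 to 3 it gave 91 of 607, 225 of 867, and 198 of 857. The part of this mix in the values of β cell–like cells was not tested. Stellate cell–like cells had 17 in 1 library and were not compared. A further cluster of 566 cells was led by Dnah12, had Ins1 among its 10 leading genes and 50.4% to 61.2% of its UMIs on Ins2 (the insulin-led cluster), and had a median of only 2313 genes at 28824 UMIs. Another of 1027 cells carried Sst, Pyy, and Ppy among its leading genes. Both stayed unnamed and were kept apart. Free RNA was not subtracted: Ins2, the measure of free β cell RNA, took 0.724% to 8.52% of the UMIs of α, δ, endothelial, and macrophage cell–like cells in single libraries, most in KO library 2 in each of these types, and 28.5% to 37.0% in β cell–like cells. The part of free RNA in the values of the other types was not tested.

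The 7 genes have 1 exon each and lie on the mitochondrial chromosome (GRCm38, the labels' mm10). On the plus strand are mt-Nd1 (chrM:2751-3707), mt-Nd2 (chrM:3914-4951), mt-Nd3 (chrM:9459-9806), mt-Nd4l (chrM:9877-10173), mt-Nd4 (chrM:10167-11544), and mt-Nd5 (chrM:11742-13565). On the minus strand is mt-Nd6 alone (chrM:13552-14070). The libraries were primed at poly(A) and read near the 3′ end, so UMIs are expected near the last bases of a gene that ends a polyadenylated mRNA. mt-Nd4l does not end its mRNA, since mt-Nd4 follows it there. Whether each of the other mRNAs had a poly(A) tail was not tested. The last bases of mt-Nd1, mt-Nd2, mt-Nd3, and mt-Nd4 are shown here from the GENCODE vM21 transcripts. They run 5′ to 3′ on the strand of the gene, with the stop codon in capitals. In mt-Nd4 the gene ends after the first base of its stop codon, and the other bases of the codon come from the poly(A) tail.

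mt-Nd1: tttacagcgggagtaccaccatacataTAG
mt-Nd2: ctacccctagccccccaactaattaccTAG
mt-Nd3: acacaaaaaggattagaatgaacagagTAA
mt-Nd4: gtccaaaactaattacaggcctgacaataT

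Of the 7, 4 share bases with a neighbor, which matters for whether their UMIs can be told apart. The last 7 bases of mt-Nd4l are the first 7 of mt-Nd4 (capitals in the first pair of lines), and these genes lie on 1 bicistronic mRNA. The last 14 bases of mt-Nd5 and of mt-Nd6 are complementary to each other (capitals in the second pair). Whether the counting used strand is not given in the sources used here, so UMIs of mt-Nd6 that lie in antisense of mt-Nd5 would be uncertain without it.

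mt-Nd4l, last 30 bases: gtccaaaatctcaacctactacaATGCTAA
mt-Nd4, first 30 bases: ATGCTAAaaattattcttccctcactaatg
mt-Nd5, last 30 bases: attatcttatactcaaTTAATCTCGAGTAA
mt-Nd6, last 30 bases: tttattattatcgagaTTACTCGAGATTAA

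In β cell–like cells with at most 10% mt- UMIs, the 7 mRNAs together took 26.9% ± 1.49 (SD, n = 6 libraries) of the mt- UMIs, from 25.3% to 29.0%. By share, mt-Nd4 (9.07% ± 0.397) and mt-Nd2 (8.43% ± 0.720) came first, followed by mt-Nd1 (4.95% ± 0.841), mt-Nd3 (2.11% ± 0.378), mt-Nd5 (1.42% ± 0.161), mt-Nd4l (0.837% ± 0.0726), and mt-Nd6 (0.0686% ± 0.00459). Per kilobase of gene the order was different. mt-Nd2 was first at 8.12% ± 0.693 per kilobase, and it exceeded mt-Nd4 (6.58% ± 0.288) in 6 of 6 libraries. The next neighbors were close: mt-Nd4 exceeded mt-Nd3 (6.06% ± 1.09) in 5 of 6 libraries, and mt-Nd3 exceeded mt-Nd1 (5.17% ± 0.879) in 5 of 6. From there on each exceeded the next in 6 of 6 libraries, down to mt-Nd4l (2.82% ± 0.244), mt-Nd5 (0.779% ± 0.0884), and mt-Nd6 (0.132% ± 0.00884). For comparison, mt-Co3, mt-Co2, and mt-Atp6, which encode subunits of cytochrome c oxidase and ATP synthase, had 23.3%, 21.0%, and 20.4% per kilobase, each above every complex I mRNA. The remaining mt- mRNAs were not as far above: mt-Cytb had 10.1% and mt-Co1 9.61%, nearer to mt-Nd2. mt-Atp8, at 1.42%, lay between mt-Nd4l and mt-Nd5. In a 3′ assay, a value per kilobase also depends on how well each 3′ end was primed, and the part of this was not tested. The level of mt-Nd6 rested on 846 to 1265 UMIs in a library, against 102664 to 159554 for mt-Nd4.

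The neighbors that share 1 mRNA were far apart in count. In β cell–like cells 9.26 ± 1.14 UMIs were assigned to mt-Nd4l for 100 on mt-Nd4, and 4.90 ± 0.756 to mt-Nd6 for 100 on the opposite mt-Nd5. Among WT libraries the mt-Nd4l to mt-Nd4 ratio was 9.38, 11.3, and 9.35, and among KO libraries it was 9.14, 8.22, and 8.18. The KO libraries were thus all below the WT libraries, with 9.35 and 9.14 the nearest values. At or under 10% mt- UMIs, the genotypes overlapped in this ratio for α, δ, and endothelial cell–like cells. They did not overlap for macrophage cell–like cells, where Cre is not expected. There WT values ran from 10.9 to 11.7 and KO values from 8.14 to 8.47. How often other ratios set the genotypes apart was not counted. The mt-Nd4l to mt-Nd4 ratio was singled out after its values were seen and is given as a description.

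**Figure D1:**
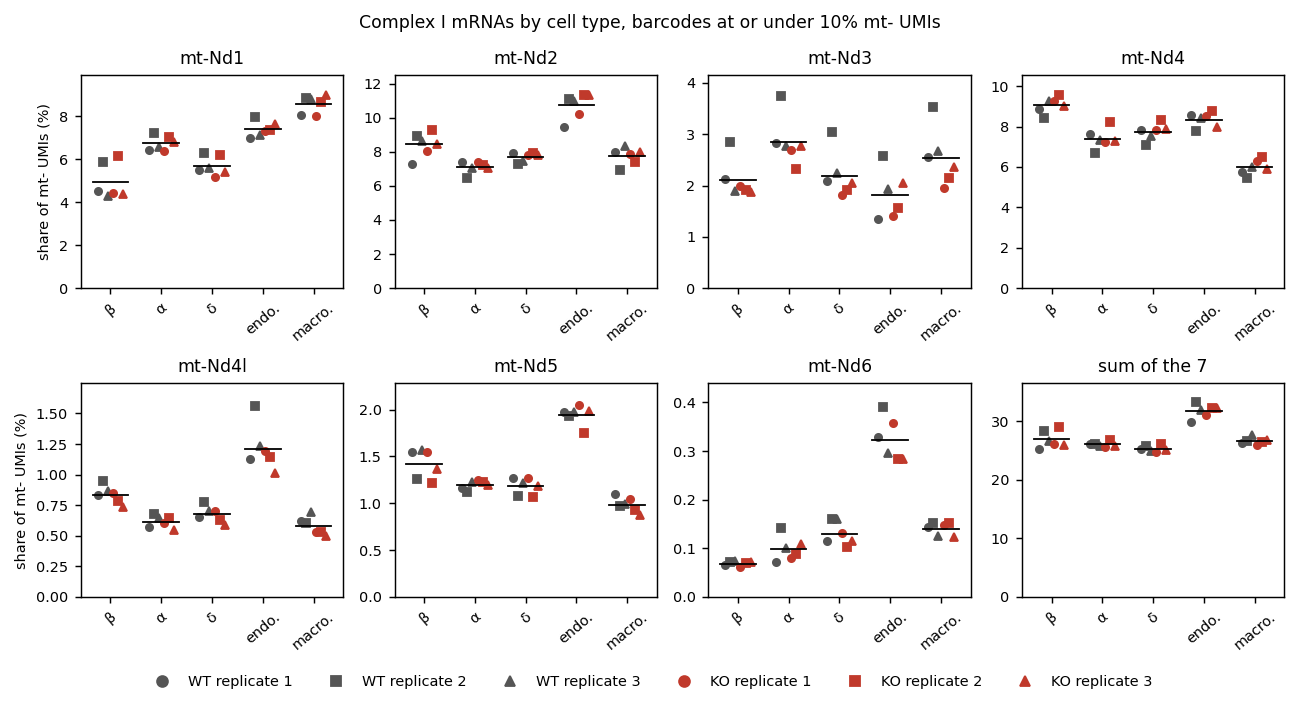
Share of the mt- UMIs (%, axis from 0) taken by each complex I mRNA and by the sum of the 7 in 5 cell types, with 1 point per library (WT gray, KO red, symbol by replicate number) and a bar at the mean of 6 libraries. mt-Nd6 is highest in endothelial cell–like cells, from 0.283% to 0.390%, and mt-Nd4 is lowest in macrophage cell–like cells, from 5.44% to 6.51%.

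The first comparison asked how the members' shares vary between cell types. Within each library, each other type was set against the β cell–like cells (2-sided exact sign-flip permutation test over 6 within-library differences, smallest p 0.031, Benjamini-Hochberg over the 52 tests of 13 mt- mRNAs and 4 types). Of 28 member and type pairs, 21 differed at an adjusted p of 0.0428 by this exact test, 12 higher and 9 lower than in β cell–like cells. Differences between types were as common over all mt- mRNAs: 73.1% of the 52 tests passed, including 17 of 24 for the other 6 mRNAs, so that the members did not stand apart by their number.

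The composition of the complex I mRNAs differed while their sum was close in 4 of the 5 types. The sum was 26.9% ± 1.49 in β, 26.0% ± 0.425 in α, 25.3% ± 0.520 in δ, and 26.6% ± 0.605 in macrophage cell–like cells (SD, n = 6). In endothelial cell–like cells it was 31.8% ± 1.20 and above the β cell–like value in 6 of 6 libraries, although all mt- mRNAs together took a smaller part of their UMIs, 2.61% ± 0.211 against 5.09% ± 0.121 in β cell–like cells. In such sums, fewer mitochondria and less RNA per mitochondrion cannot be told apart. Summed over the 7 members the level was 13696 ± 1045 CPM in β and 8277 ± 613 CPM in endothelial cell–like cells.

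mt-Nd1, a membrane arm subunit next to the junction with the peripheral arm, where ubiquinone is reduced, was higher than in β cell–like cells in all 4 other types. In β cell–like cells its share was 4.54%, 5.88%, and 4.28% in WT and 4.42%, 6.16%, and 4.40% in KO libraries. In macrophage cell–like cells it was 8.08%, 8.87%, and 8.82% in WT and 8.03%, 8.66%, and 8.97% in KO libraries. Every macrophage value lay above every β value, with a ratio of 1.77 ± 0.268 (SD of 6 within-library ratios). The ratio was 1.52 ± 0.208 for endothelial, 1.38 ± 0.166 for α, and 1.17 ± 0.110 for δ cell–like cells.

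mt-Nd4, one of the antiporter-like subunits that form the proton channels of the membrane arm, went the other way and was lower than in β cell–like cells in all 4 other types. Its share in β cell–like cells was 8.88%, 8.42%, and 9.25% in WT and 9.26%, 9.58%, and 9.02% in KO libraries. In macrophage cell–like cells it was 5.74%, 5.44%, and 5.98% in WT and 6.31%, 6.51%, and 5.90% in the KO libraries. The within-library difference from β cell–like cells was -3.09 percentage points ± 0.115 and varied less between libraries than the shares themselves. The ratio to β cell–like cells was 0.659 ± 0.0171 in macrophage, 0.816 ± 0.0355 in α, 0.854 ± 0.0247 in δ, and 0.920 ± 0.0270 in endothelial cell–like cells. The last of these depended on the denominator: with mt-Co1, the mt- mRNA with the largest SD in share, left out of it, mt-Nd4 was higher in endothelial than in β cell–like cells in 2 of 6 libraries. This alternative was chosen after seeing the data. The other 20 called pairs kept 1 direction in 6 of 6 libraries without mt-Co1.

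mt-Nd6, the member on the opposite strand and a small subunit near mt-Nd1 in the membrane arm, had the largest relative differences. Endothelial cell–like cells had 0.328%, 0.390%, and 0.297% in WT and 0.357%, 0.283%, and 0.283% in KO libraries. In β cell–like cells its share was 0.0648%, 0.0715%, and 0.0732% in WT and 0.0614%, 0.0693%, and 0.0715% in KO libraries. No endothelial library came near any β library, and the ratio was 4.74 ± 0.811. The ratio was 2.06 ± 0.287 in macrophage, 1.90 ± 0.327 in δ, and 1.43 ± 0.309 in α cell–like cells. These values rest on few counts, from 103 to 172 UMIs in an endothelial and 37 to 64 in a macrophage library. The mt-Nd6 to mt-Nd5 ratio went from 4.90 ± 0.756 UMIs for 100 in β to 16.6 ± 2.07 in endothelial cell–like cells. The UMIs assigned to mt-Nd6 were thus not a fixed part of those assigned to mt-Nd5. How well either mRNA was primed at poly(A) was not tested, so the ratio is one of UMIs and not of mRNA levels.

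mt-Nd2 and mt-Nd5, also antiporter-like subunits, and mt-Nd4l, a small subunit between mt-Nd6 and mt-Nd2 in the arm, shared a pattern in endothelial cell–like cells. There mt-Nd2 was at 10.7% ± 0.749, mt-Nd5 at 1.95% ± 0.103, and mt-Nd4l at 1.21% ± 0.188, which was 1.27 ± 0.0461, 1.38 ± 0.113, and 1.44 ± 0.105 times the β cell–like share. mt-Nd4l was lower than in β cell–like cells in α (0.614% ± 0.0485), δ (0.674% ± 0.0650), and macrophage cell–like cells (0.581% ± 0.0752). mt-Nd5 was lower in δ (1.18% ± 0.0909) and macrophage cell–like cells (0.986% ± 0.0797). In α cell–like cells mt-Nd5 (1.20% ± 0.0468, lower in 5 of 6 libraries) had an adjusted p of 0.0756 by the exact permutation test. mt-Nd2 passed in endothelial cell–like cells and in none of the other 3 types, where the exact adjusted p was 0.0756 to 0.232. The mt-Nd4l to mt-Nd4 ratio, of the pair on 1 bicistronic mRNA, was 14.6 ± 2.78 UMIs for 100 in endothelial and 8.33 ± 1.01 in α cell–like cells, with 9.26 ± 1.14 in β.

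mt-Nd3, a small subunit at the junction of both arms, passed the test in α cell–like cells, higher than in β at 2.85% ± 0.471 and 1.36 ± 0.101 times the β cell–like share. It was 2.19% ± 0.439 in δ, 2.54% ± 0.552 in macrophage, and 1.81% ± 0.469 in endothelial cell–like cells, with exact adjusted p from 0.0756 to 0.382. Against mt-Nd1, mt-Nd3 had 43.0 ± 6.22 UMIs for 100 in β, 42.3 ± 6.05 in α, and 24.3 ± 5.27 in endothelial cell–like cells. The cluster with several hormones had mt-Nd3 at 2.17% ± 0.369 and mt-Nd4 at 8.64% ± 0.455, and was not tested as it has no name.

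The second comparison asked whether the members' levels changed with the loss of 14-3-3ζ in β cells, since the study set mitochondrial function of β cells beside that loss. Counts were added up per library after KO cells in which Ywhaz was still detected had been dropped, and edgeR's quasi-likelihood test was run on the 9508 genes detected in over 15% of cells in at least 1 genotype. The removal acted on KO cells only and left 617 of 1082, 662 of 964, and 598 of 1054 of them. All WT cells stayed, also those without a Ywhaz UMI. Whether the KO cells left out differed in depth was not tested. Of the 7 members, 0 were called (Benjamini-Hochberg adjusted p under 0.05 and an absolute log2 fold change over 0.1), 0 had an unadjusted p under 0.05, and DESeq2 called 0 as well. The background was 0.0105% of the genes tested, which was 1 gene, Ywhaz, whose call was fixed by leaving out KO cells with its UMI, and 507 genes had p under 0.05 before adjustment. A block for the replicate number raised the edgeR count to 14 genes with again 0 members, and DESeq2 called 6 genes. At 3 against 3 libraries this bounds the change only through the standard errors given here, and does not show that the levels are equal.

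The largest log2 fold change upward among members was that of mt-Nd4, at 0.15 ± 0.11 (SE, Benjamini-Hochberg adjusted p = 0.889 in the edgeR fit). Its level was 4490, 4397, and 4499 CPM in WT and 4627, 5620, and 4588 CPM in KO libraries. All KO libraries were above all WT libraries, but KO library 2 stood apart from the other 2 KO libraries, and without any 1 library the log2 fold change ran from 0.05 to 0.20. It was the 1 member of 7 whose libraries did not overlap between genotypes, against 11.6% of all genes tested. The mix of the 2 β cell–like clusters in KO library 2 was unlike that of the other libraries, and its part here was not tested.

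The largest fall in value was that of mt-Nd3, with a log2 fold change of -0.19 ± 0.17 (adjusted p = 0.906 by edgeR). Its level was 1078, 1490, and 918 CPM in WT and 1006, 1122, and 938 CPM in KO libraries. WT library 2 was above the other 5, and the log2 fold change was 0.03 without it. The groups overlapped.

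For the other members the log2 fold change was 0.10 ± 0.22 for mt-Nd1, 0.13 ± 0.15 for mt-Nd2, -0.09 ± 0.11 for mt-Nd4l, 0.00 ± 0.10 for mt-Nd5, and 0.03 ± 0.10 for mt-Nd6, with adjusted p from 0.917 to 1.00 by edgeR. Leaving out 1 library turned the sign of mt-Nd1 (from -0.17 without KO library 2 to 0.28 without WT library 2) and of mt-Nd2 (from -0.02 to 0.21 for the same libraries). The values of mt-Nd4l ran from -0.17 to -0.00, of mt-Nd5 from -0.07 to 0.05, and of mt-Nd6 from -0.05 to 0.11. mt-Nd1 had the widest spread, with 2297, 3071, and 2085 CPM in WT and 2214, 3582, and 2203 CPM in the KO libraries. The libraries numbered 2 were the highest of both genotypes in mt-Nd1. For mt-Nd5 the levels were 785, 657, and 765 CPM in WT and 797, 715, and 697 CPM in KO libraries, with WT library 2 the lowest.

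**Figure D2:**
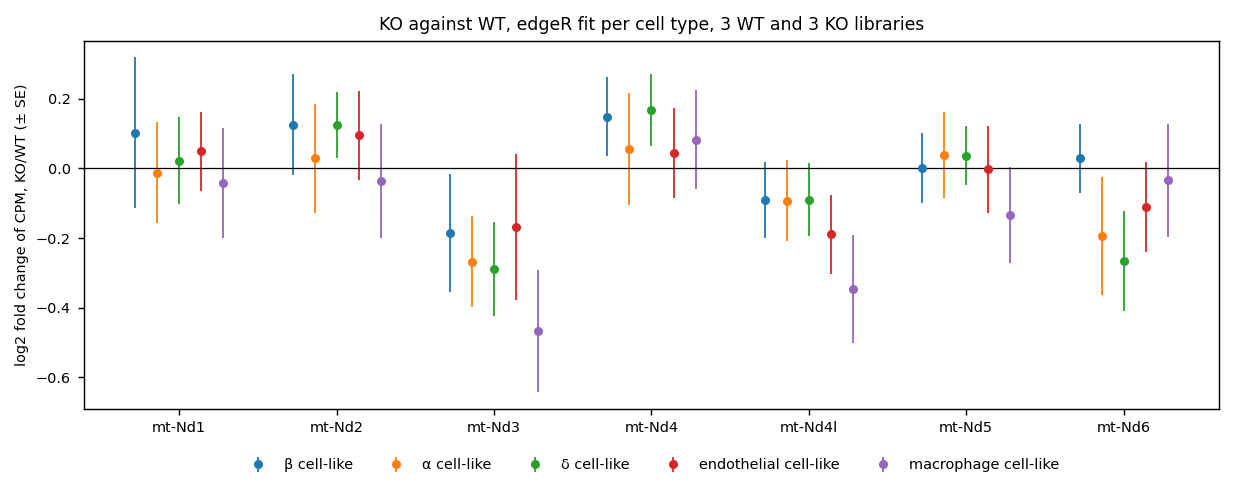
Log2 fold change of CPM, KO against WT, of each complex I mRNA in 5 cell types (edgeR's quasi-likelihood fit in each type, points with bars of 1 SE, 3 WT and 3 KO libraries). Points for mt-Nd3 lie below 0 in each of the 5 types, from -0.17 to -0.47, but WT library 2 holds the highest mt-Nd3 share in each type, and none of the points was called.

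In the other 4 types, where Cre is not expected, 0 of 28 member and type pairs were called by edgeR, and 3 had an unadjusted p under 0.05. With DESeq2, with a block for the replicate number, or with scaling computed without the mt- genes, no member was called in these types either. Of the genes tested, 0% were called in each of α, δ, endothelial, and macrophage cell–like cells, with 329, 299, 256, and 426 genes at an unadjusted p under 0.05. The 3 pairs were mt-Nd3 in δ (-0.29 ± 0.13), and mt-Nd3 (-0.47 ± 0.18) and mt-Nd4l (-0.35 ± 0.16) in macrophage cell–like cells, on the log2 scale. mt-Nd3 in macrophage cell–like cells was at 822, 1230, and 1097 CPM in WT and 679, 672, and 930 CPM in KO libraries, so the groups overlapped. mt-Nd4l in the same cells was at 201, 212, and 286 CPM in WT and 185, 166, and 196 CPM in KO libraries, which did not overlap. The libraries did not overlap for 1 member of 7 in each of α (mt-Nd3), endothelial, and macrophage cell–like cells (mt-Nd4l in both), and for 0 in δ cell–like cells, against 9.67%, 8.62%, 11.8%, and 8.22% of the genes tested in these types in the same order.

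The share of the mt- UMIs was then compared between genotypes, which takes out how much nuclear RNA a cell holds (2-sided exact permutation test of 3 against 3 libraries, smallest p 0.1, so that no result can reach 0.05). In the β cell–like cells, all KO cells kept, 0 of 7 members had libraries that did not overlap. Within the numbered pairs, mt-Nd3, mt-Nd5, and mt-Nd6 were lower in KO in 3 of 3 pairs, at 0.25 in the exact sign-flip permutation test, the smallest p that 3 pairs allow. Over all 13 mt- mRNAs 53.8% went 1 way in 3 of 3 pairs, so 3 of 7 members is not above the background. Over the 5 types, 5 of 35 pairs did not overlap, against 21.5% over all 13 mt- mRNAs in the same types. Of these, 3 were mt-Nd3, lower in KO libraries of α, δ, and macrophage cell–like cells, 1 was mt-Nd4, higher in KO in δ, and 1 was mt-Nd4l, lower in KO in macrophage cell–like cells, each at the smallest exact permutation p of 0.1.

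The mt-Nd3 share shows how far 1 library reached. In macrophage cell–like cells it was 2.55%, 3.53%, and 2.68% in WT and 1.96%, 2.15%, and 2.35% in the KO libraries. The KO libraries were all below the WT libraries, and the KO minus WT difference of -0.765 percentage points was -0.461 without WT library 2. In α cell–like cells the share was 2.82%, 3.74%, and 2.77% in WT and 2.69%, 2.32%, and 2.76% in the KO libraries. The difference of -0.519 percentage points there was -0.206 without WT library 2. It went from -0.528 to -0.237 in δ cell–like cells and from -0.365 to -0.0835 in β cell–like cells, whose groups overlapped. In endothelial cell–like cells the sign turned, from -0.287 to 0.0257. Outside β cell–like cells, leaving out this library was chosen after seeing the data. WT library 2 had the highest mt-Nd3 share of the 6 in all 5 types, and over 10% mt- UMIs in β, α, and δ cell–like cells as well. It also held 1261 and 418 cells named for B and T cell markers, and KO library 2 held 1670 and 1316, against 12 to 196 B and 8 to 107 T cell–like cells in the others, and their part in these values was not tested.

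mt-Nd4 in δ cell–like cells was at 7.80%, 7.10%, and 7.52% in WT and 7.83%, 8.32%, and 7.88% in the KO libraries. The KO mean was higher by 0.534 percentage points, the nearest libraries of the groups were 7.80% and 7.83%, and with mt-Co1 left out of the denominator the groups overlapped. mt-Co1, a subunit of cytochrome c oxidase, was itself lowest in KO library 2 in all 5 types, at 11.6% in β cell–like cells against 14.6% to 16.4% in the other 5 libraries. In the β cell–like share without mt-Co1, chosen after seeing the data, mt-Nd4l did not overlap between genotypes, at 0.997%, 1.12%, and 1.03% in WT and 0.991%, 0.891%, and 0.872% in KO libraries, and the other 6 members overlapped. The nearest libraries were 0.997% and 0.991%. With mt-Co1 kept, 21.5% of the pairs of an mt- mRNA and a type did not overlap. Overlap without mt-Co1 was not counted for the other mt- mRNAs, so the value of mt-Nd4l is a description.

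Among nuclear genes of the same pathway, from a list drawn up with earlier results of these data known, all 37 nuclear-encoded complex I subunits of the list were tested in β cell–like cells and 0 were called by edgeR. Of the 37, 34 had a log2 fold change above 0 with a median of 0.20, against -0.00 over the genes tested. Before adjustment, 5 of the 37 had p under 0.05, against 5.33% of the genes tested, and the libraries of 3 of the 37 did not overlap, against 11.6%. The 3 with the lowest p were Ndufa6 (0.34 ± 0.12), Ndufa12 (0.25 ± 0.09), and Ndufb9 (0.31 ± 0.12), with adjusted p of 0.887 each by edgeR. Ndufa6, an accessory subunit, was at 111, 127, and 133 CPM in WT and 135, 180, and 154 CPM in KO libraries, and KO library 2 was the highest of the 6 in each of the 3. In the other types 30 to 35 of the 37 were above 0, with medians from 0.06 to 0.17, so values above 0 were the majority there too, and 0 were called. Of the 16 complex I assembly factors tested, 10 were above 0 with a median of 0.05 and 0 were called. The 3 with the lowest p were Ndufaf8 (0.25 ± 0.14), Acad9 (-0.26 ± 0.15), and Ndufaf4 (0.13 ± 0.09). Of 27 genes for mitochondrial transcription and RNA processing, 13 were above 0 with a median of -0.02 and 0 were called. The libraries of 2 of the 27 did not overlap between genotypes, a share under the 11.6% of all genes tested. The 3 with the lowest p were Hsd17b10 (0.19 ± 0.08) and Trmt10c (0.22 ± 0.10), which are part of mitochondrial RNase P, and Rexo2 (0.12 ± 0.08).

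The third comparison set barcodes with over 10% mt- UMIs, which the 10% limit removes, against those at or under it in the same library (2-sided exact sign-flip permutation test over 6 differences, smallest p 0.031). Of 42 member and scope pairs, over all barcodes, β, α, and δ cell–like cells, and both unnamed clusters, 18 moved in 1 direction in 6 of 6 libraries. Over all 13 mt- mRNAs 47.4% of 78 tests did. None passed after Benjamini-Hochberg adjustment over the 78 tests, with 0% of all mt- mRNAs called and a smallest adjusted p of 0.0659 by the exact permutation test, so the values that follow are uncorrected. This family was wider than the planned one, the members of a type, for which no adjusted p is given here. Endothelial and macrophage cell–like cells had 23 and 33 barcodes over 10% and were not compared. Barcodes over 10% were named by their nearest neighbors among the others.

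Among β cell–like cells 4 of the 7 members moved 1 way in every library. The 2 classes differed in depth as well, with medians of 22658 to 39774 UMIs at or under 10% and 7799 to 17755 over it. Ins2 took 32.3% ± 3.15 and 20.5% ± 2.63 of their UMIs. The part of depth in these changes was not tested. mt-Nd3 rose in share, from 2.13%, 2.86%, and 1.89% to 2.36%, 3.05%, and 2.05% in WT and from 1.99%, 1.91%, and 1.88% to 2.04%, 2.12%, and 1.94% in KO libraries. This was higher in 6 of 6 libraries by 0.152 percentage points ± 0.0721 (SD), at an exact permutation p of 0.031 before adjustment. It was a smaller step than the one between WT library 2 and the rest.

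mt-Nd4, mt-Nd4l, and mt-Nd5 went down in share in 6 of 6 libraries. mt-Nd4 fell by 0.463 percentage points ± 0.212, to 8.78%, 7.85%, and 8.68% in WT and 8.89%, 8.89%, and 8.54% in KO libraries. mt-Nd4l decreased by 0.0993 ± 0.0183 and mt-Nd5 by 0.155 ± 0.0394, which were ratios of 0.881 and 0.891. The differences of mt-Nd4l lay between -0.119 and -0.0674 percentage points, the smallest SD of the 4. mt-Nd1, mt-Nd2, and mt-Nd6 rose in some libraries and fell in others. The sum of the 7 went from 26.9% ± 1.49 to 26.2% ± 1.10 and was lower in 5 of 6 libraries.

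In δ cell–like cells mt-Nd4 went up rather than down, from 7.80%, 7.10%, and 7.52% to 8.18%, 7.52%, and 8.02% in WT and from 7.83%, 8.32%, and 7.88% to 8.28%, 8.41%, and 8.26% in KO libraries. It was the 1 member with the same direction in every library there. In δ cell–like cells the medians of both classes were near each other, 12646 to 22933 UMIs at or under 10% and 14959 to 22717 over it. Cell type and this unlike depth were not told apart in the contrast with β cell–like cells. In α cell–like cells mt-Nd1 fell by 0.309 percentage points ± 0.190 in 6 of 6 libraries, and mt-Nd2 went up in 6 of 6, by 0.566 ± 0.366. Over all barcodes mt-Nd4l decreased by 0.0744 percentage points ± 0.0304 and mt-Nd5 decreased by 0.130 ± 0.0283, each in 6 of 6 libraries. The change of mt-Nd5 was larger in each KO library (-0.177 to -0.133) than in each WT library (-0.123 to -0.101), at the smallest exact permutation p of 0.1. It was the 1 of 42 member and scope pairs whose genotypes did not overlap in this change, against 5.13% of the 78 tests over all 13 mt- mRNAs, so it is given as a value and not as a genotype difference. For β cell–like cells alone the genotypes overlapped in it (p = 0.2, exact permutation test), and none of the 7 members had genotypes apart there.

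**Figure D3:**
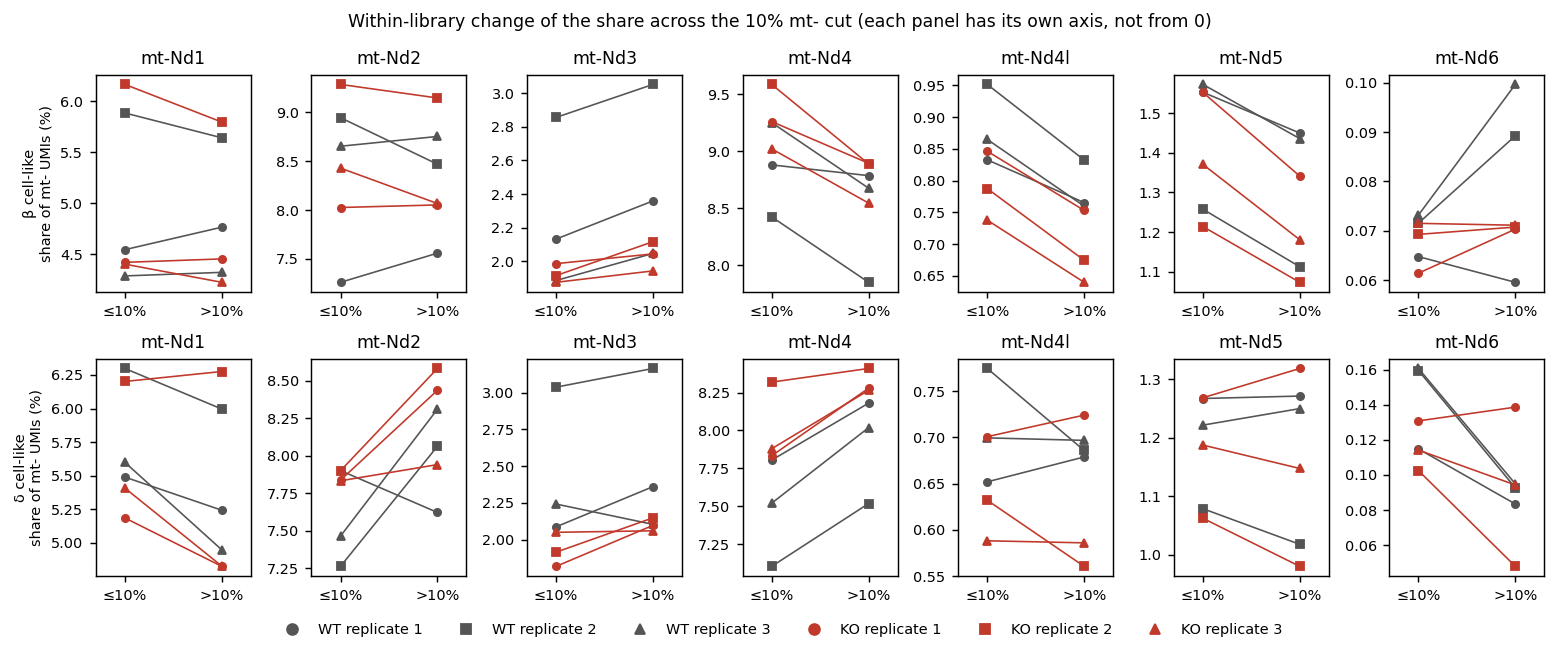
Share of the mt- UMIs (%, each panel with its own axis, not from 0) of each complex I mRNA in barcodes at or under and over 10% mt- UMIs, in β (top) and δ cell–like cells (bottom), with 1 line per library (WT gray, KO red). In β cell–like cells the 6 lines of mt-Nd4, mt-Nd4l, and mt-Nd5 all fall and those of mt-Nd3 all rise, while in δ cell–like cells those of mt-Nd4 all rise.

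The insulin-led cluster differed from β cell–like cells on the side at or under 10%. There the 7 members took 16.7%, 15.8%, and 17.3% of the mt- UMIs in WT and 17.6%, 20.5%, and 16.4% in KO libraries, below every β cell–like library (25.3% to 29.0%), and mt- mRNAs took only 2.47% ± 0.218 of its UMIs. Since the cluster was drawn from the same cells, this is a description. The means of all 7 members lay under the β cell–like means, by unequal parts. mt-Nd3 was at 0.901% ± 0.211 and mt-Nd1 at 2.44% ± 0.417, against 2.11% and 4.95% in β cell–like cells. mt-Nd4 was at 7.55% ± 0.617 and mt-Nd5 at 1.21% ± 0.0651, against 9.07% and 1.42%. In this cluster mt-Co1 took 20.6% ± 2.81. In barcodes over 10% the sum was 24.5% ± 1.70 and mt-Co1 13.6% ± 2.12, near the β cell–like values. mt-Nd1, mt-Nd2, mt-Nd3, mt-Nd4l, and mt-Nd6 rose in share across the limit in 6 of 6 libraries, with ratios from 1.35 to 2.22. Over 10%, the cluster held 348 barcodes, with as few as 20 in a library and medians of 3180 to 5712 UMIs, and these were assigned by their neighbors. Ins2 took 12.4% to 37.3% of the UMIs of these barcodes, against 50.4% to 61.2% at or under 10%. The barcodes over 10% thus lacked the Ins2 level by which the cluster is called insulin-led, and the rise sets unlike barcodes side by side. Whether they are the same kind of cell was not tested further.

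Across finer steps of the mt- percentage the mean of the sum of the 7 was lowest in the barcodes with the fewest mt- UMIs, mainly through WT library 1 and not in every library. Over all barcodes it was 18.3%, 25.6%, and 23.3% in WT and 23.1%, 24.8%, and 25.9% in KO libraries at up to 2% mt- UMIs, and 24.3% to 26.7% at 2% to 5%. WT library 1 was the lowest at both steps, while WT library 2 and KO library 3 at up to 2% lay within the range of the higher steps. It also gave 182 of the 566 cells of the insulin-led cluster, whose part in this value was not tested. From 5% up to 100% the sum stayed between 24.6% and 27.8% in all libraries. In β cell–like cells mt-Nd4 went from 9.17% ± 0.420 at 2% to 5% to 7.95% ± 0.337 at 40% to 60%, each step holding other cells of the same libraries. mt-Nd6 had no single direction, with 0.0765% ± 0.00478 at 2% to 5%, 0.0619% ± 0.00829 at 10% to 20%, and 0.108% ± 0.0186 at 40% to 60%.

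**Figure D4:**
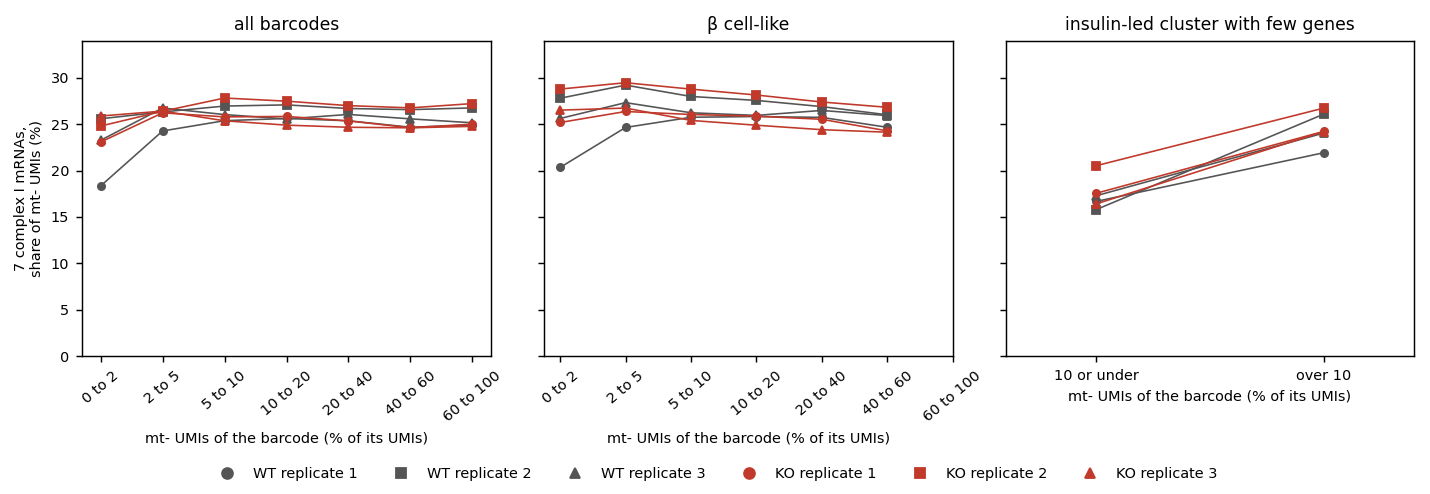
Sum of the 7 complex I mRNAs as a share of the mt- UMIs (%, axis from 0) against the mt- percentage of the barcode, over all barcodes, in β cell–like cells, and in the insulin-led cluster (at or under and over 10% only), with 1 line per library. The lines are near level from 5% upward, WT library 1 is low at 0% to 2% (18.3% over all barcodes), and the insulin-led cluster rises from 15.8% to 20.5% up to 21.9% to 26.7%. The 2 sides of that cluster are unlike: Ins2 takes 50.4% to 61.2% of UMIs at or under 10% and 12.4% to 37.3% over it.

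The genes outside the mitochondrial genome whose CPM was most like the members' summed CPM, over 30 sums of 6 libraries and 5 types and among 9117 genes of at least 10 CPM, were Plcxd2 (Pearson's r = 0.926), Grtp1 (0.924), Dst (0.921), Cdk5rap3 (0.918), and Arsb (0.918). The sums share libraries and depth and fall into islet endocrine and other types, so r is a description. Plcxd2 had 21.8, 30.5, and 32.3 CPM in β, α, and δ and 1.62 and 4.88 CPM in endothelial and macrophage cell–like cells. The members' sum followed the same split, with 13696, 14374, and 13543 CPM in the first and 8277 and 9220 CPM in the second.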

How the data were processed

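Islet cells of 6 libraries were profiled with 10x Genomics 3′ chemistry (v3.1). The deposited values are UMI counts per gene and barcode, made by the authors with Cell Ranger 6.0.2 on mm10 and analyzed by them with Seurat, per the submitters' processing notes. Whether the counting used strand is not given in the sources used here. Because UMIs are tallied near the 3′ end, a level per kilobase is a rough one, and free RNA was not removed. Libraries held 74083947 to 98294915 UMIs.

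Barcodes with under 500 genes (3485) were left out, and 2648 doublets were removed as the top 0.8% per 1000 barcodes of a simulated-doublet score in each library. The 25438 barcodes at or under 10% mt- UMIs were clustered (2000 variable genes, 30 principal components, 15 neighbors, Leiden at resolution 1, 36 clusters) and named by fixed markers. A name needed at least 3 markers in 10% of cells at 1.5-fold, more of its own markers than of any other type among the top 10 genes, and a median of 3500 UMIs. These thresholds were set after the clusters were seen. Barcodes over 10% took the type of most of their 15 neighbors. Only types that reached 20 cells in each of the libraries were compared.

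UMIs were summed per library and type. Shares were compared with 2-sided exact permutation tests, adjusted (Benjamini-Hochberg) over all 13 mt- mRNAs and types of a comparison. The plan had been to adjust over members only, and this was changed later. The planned family was all members and types for the types set against β cell–like cells. In the other share comparisons it was the members of a type. CPM was tested with edgeR's quasi-likelihood test over genes with a UMI in over 15% of cells of a genotype, without KO β cell–like cells that had a Ywhaz UMI, and genes were called at an adjusted p under 0.05 and an absolute log2 fold change over 0.1. Numbered pairs are WT and KO libraries of the same replicate number. Their deviations from their group means correlated at 0.58, 0.52, and 0.19. Libraries of different numbers were not correlated for comparison, so these values do not show that the numbers mark pairs. No litter or day is stated for them, and the main edgeR fit had no block. Named genes were the 7 members, the other mt- mRNAs set against them, Ywhaz, Ins2, the 3 genes with the lowest p of each list, and the 5 genes most like the members' sum. The members and lists were chosen with earlier results of these data known. The edgeR fit without a block was tested on counts simulated from β cell–like means, and the exact permutation tests on random values. The other fits were not tested in this way. Python 3.11.15, scanpy 1.11.5, R 4.3.3, edgeR 4.0.16, and DESeq2 1.42.0 were used. Sequences and coordinates are from GENCODE vM21 (GRCm38).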

Additional observations from a re-analysis of the deposited data

Results flagged for a closer look

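In 4 cases, the change of a share from barcodes at or under 10% to barcodes over 10% mt- UMIs went one way in every library of one set of cells and the other way in every library of another. Of all 70 pairs of cell sets compared over the 7 members, 37 reached the smallest p of the exact sign-flip permutation test over 6 libraries (0.031, 0.0591 after Benjamini-Hochberg adjustment), and none of the 4 passed adjustment. The 4 were picked for their opposite directions, which fixes their p at this smallest value. The test thus says nothing more about them, and their values are a description. For mt-Nd4, δ minus β cell–like cells was 0.831 percentage points ± 0.208 (SD of 6 libraries). For mt-Nd1, the insulin-led cluster minus α cell–like cells was 2.27 ± 0.539. For mt-Nd4l, the insulin-led cluster minus β cell–like cells was 0.266 ± 0.0936, and the cluster with several hormones minus the insulin-led cluster was -0.244 ± 0.0809. The barcodes of the insulin-led cluster on either side of 10% differed in their Ins2 level, so its changes compare unlike barcodes.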

How the results depend on the processing

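No member was called between genotypes in β cell–like cells under any of the 14 alternatives, while the count over all genes went from 1 to 6 with DESeq2, 6 without the filter on low counts, and 14 with the replicate block. With the replicate block the log2 fold change of mt-Nd3 was -0.16 against -0.19, and the block changed no call of a member. Log2 fold changes near 0 did change sign: 2 of the 7 were below 0, and 2 to 5 under the alternatives. Without any 1 library the members called stayed at 0, and the KO minus WT difference of the summed share in β cell–like cells ran from -0.719 to 1.10 percentage points. The over minus under 10% difference of the sum ran from -0.385 to -0.0491 over all barcodes and from -0.975 to -0.610 in β cell–like cells, and its genotype difference from -0.923 to -0.314 and from -1.003 to -0.0923. The sum minus that of β cell–like cells ran from -1.21 to -0.577 in α, -1.89 to -1.31 in δ, 4.58 to 5.23 in endothelial, and -0.608 to 0.136 in macrophage cell–like cells.

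With all barcodes clustered together the over minus under 10% difference of the sum in β cell–like cells was -0.927 against -0.733 and went down in 6 of 6 libraries. In the same comparison the sign turned for mt-Nd6: -0.0216 with the limit at 5% and -0.0790 at 1000 to 5000 UMIs over all barcodes (0.0131 before), and -0.0128 in β cell–like cells with all barcodes clustered together (0.00817 before). Over all barcodes the sum, which had no single direction across libraries (-0.211), was 0.345 as a mean over barcodes, 0.107 with the limit at 5%, and 1.52 at 1000 to 5000 UMIs, and mt-Nd4 (-0.180) was 0.309, 0.204, and 1.18. mt-Nd1 and mt-Nd2 in β cell–like cells, also mixed between libraries, changed sign as centred log2 ratios. The causes were not tested. The window of 1000 to 5000 UMIs gave no value in β cell–like cells. Of the 21 differences between types, 19 to 21 stayed past the threshold under 5 alternatives and 0 turned. With 3 libraries of each genotype the exact tests between genotypes could not pass 0.05, and mt-Nd6 rested on few UMIs outside β cell–like cells.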
